A study of Mus musculus with 11 samples.

Results

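The BCL2 family genes examined here were 10 mouse genes that control the mitochondrial route of cell death: Bcl2, Bcl2l1, Mcl1, Bcl2l2, Bcl2l11, Bax, Bak1, Bid, Bbc3 and Pmaip1. They were taken by gene symbol from a table of 54347 genes, of which 14915 passed a filter on low counts. The symbols matched 11 rows, because Bcl2l2 stood on 2 of them. By their Ensembl identifiers, ENSMUSG00000089682 is Bcl2l2 in GENCODE M21 and ENSMUSG00000022194 is its downstream neighbour Pabpn1, which encodes a nuclear poly(A)-binding protein. The Pabpn1 row was therefore kept apart from the family, and all 10 family genes passed the filter.

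Blood-forming cells were sorted from marrow of the hind legs of 4 C57BL/6NTac mice (female) and their RNA sequenced in bulk, without any genetic change or treatment named in the labels. Long-term haematopoietic stem cells (LT-HSC) were sorted as CD150+ CD48- cells of the LSK gate (lineage-negative, Sca-1+, c-Kit+) and split by surface endomucin (EMCN), a sialomucin known from endothelium, into EMCN+ cells (4 libraries, mice 1 to 4) and EMCN- cells (3 libraries, mice 1, 2 and 4). Granulocyte-monocyte progenitors (GMP, 4 libraries, mice 1 to 4) were sorted as a more differentiated reference. The fourth EMCN- library was removed by the submitters for poor quality. Each library came from 3000 to 5000 sorted cells, and cells taking up the dye 7-AAD, which enters dead cells, were gated out in all groups. The age of the mice is not given in the labels.

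BCL2 family proteins meet at the outer membrane of the mitochondrion. BAX and BAK1 are the effectors that open this membrane and release cytochrome c, which starts the caspase cascade. BCL2, BCL2L1 (BCL-XL), MCL1 and BCL2L2 (BCL-w) hold the effectors and their activators in check, while BCL2L11 (BIM), BID, BBC3 (PUMA) and PMAIP1 (NOXA) are BH3-only proteins that sense stress and tip the balance toward death. Mcl1 is known to be required for the survival of haematopoietic stem cells, and its protein turns over quickly.

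What ties the 3 classes together is the BH3 segment, the helix through which the death-promoting proteins dock into the groove of the pro-survival proteins. The coding stretches of this segment are shown for 9 of the genes, read from the GRCm38 genome with GENCODE M21 coding sequences, 5′ to 3′ on the coding strand. Capitals mark the glycine or alanine codon and the aspartate codon at the centre of the segment.
Bcl2 (chr1:106712572-106712613, minus strand): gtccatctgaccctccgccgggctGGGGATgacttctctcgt
Bcl2l1 (chr2:152829694-152829735, minus strand): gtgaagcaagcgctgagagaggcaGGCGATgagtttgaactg
Mcl1 (chr3:95659424-95659465, plus strand): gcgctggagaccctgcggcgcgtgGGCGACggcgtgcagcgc
Bcl2l2 (chr14:54884505-54884546, plus strand): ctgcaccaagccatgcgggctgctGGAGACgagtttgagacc
Bcl2l11 (chr2:128147138-128147179, plus strand): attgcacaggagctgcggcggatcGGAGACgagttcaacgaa
Bid (chr6:120897286-120897327, minus strand): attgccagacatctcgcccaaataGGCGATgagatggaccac
Bbc3 (chr7:16313761-16313802, plus strand): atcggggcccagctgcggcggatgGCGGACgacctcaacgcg
Bax (chr7:45465994-45466035, minus strand): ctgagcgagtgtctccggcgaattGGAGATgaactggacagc
Bak1 (chr17:27022528-27022569, minus strand): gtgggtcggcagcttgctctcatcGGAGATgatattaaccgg
Bbc3 was the member of this set with an alanine codon in capitals, where the other 8 have a glycine codon. The stretch was located by a search of the coding frame for a leucine or methionine codon, 3 codons of any kind, a glycine or alanine codon and an aspartate codon, which matched exactly once in each of these 9 genes. The pattern alone is not specific, since 27.9% of 21503 protein-coding genes held it at least once and 20.7% exactly once. All these stretches lie in coding exons, and the counts below are for whole genes and do not separate splice forms.

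The sorted groups carried the markers of their labels. A list of 8 LT-HSC genes summed to 992 to 1180 CPM (counts scaled to a common library size) in EMCN+ cells, 699 to 812 in EMCN- cells and 11.8 to 13.8 in GMP, and a list of 8 GMP genes summed to 22.8 to 33.8 CPM in the 7 LT-HSC libraries against 15300 to 18600 in GMP. Libraries held 3629234 to 11141483 counts, and after the scaling described next 1 count was worth 0.0697 to 0.235 CPM. CPM values were scaled with TMM factors, which match libraries on the bulk of genes. These were 1.10 to 1.31 in LT-HSC and 0.668 to 0.757 in GMP, where mitochondrial ribosomal RNA took 26.5 to 29.3% of counts against 13.9 to 22.1% in LT-HSC. Scaling by total counts instead raised the median gene by 0.781 on the log2 scale in LT-HSC versus GMP and by 0.11 in EMCN+ versus EMCN-, and results that turn on this choice are given with both values. Within EMCN+ cells, EMCN- cells or GMP the libraries came from different mice, while the 7 LT-HSC libraries pooled below came from 4 mice. In bulk RNA, a lower level in every cell and fewer cells with the transcript cannot be told apart.

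Divided by gene length, Mcl1 was the most abundant family transcript in every group, at 53.2 ± 0.88 CPM per kb in EMCN+ cells (SD, n = 4), 52.0 ± 1.6 in EMCN- cells (n = 3) and 34.1 ± 2.0 in GMP (n = 4). It made up 60.4 ± 2.7%, 57.3 ± 1.5% and 33.9 ± 1.8% of the summed CPM per kb of the 10 genes in those groups. Bak1 came next, at 9.68 ± 1.4, 10.8 ± 1.6 and 19.9 ± 3.9 CPM per kb. The libraries of Mcl1 and Bak1 did not overlap within any group.

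Below these, the order differed between stem cells and progenitors. In EMCN+ cells Bcl2l1 (6.46 ± 1.5 CPM per kb), Bcl2 (5.58 ± 0.69) and Bax (4.996 ± 0.77) followed, and each overlapped its neighbour in that order. In EMCN- cells Bcl2 (6.79 ± 1.3), Bax (6.14 ± 0.64) and Bcl2l1 (5.96 ± 0.77) again overlapped one with the next. Bid stood sixth in both fractions, at 3.50 ± 0.92 and 4.24 ± 0.87 CPM per kb. In GMP, Bid was in place 3 at 19.3 ± 3.1 CPM per kb and overlapped Bak1 above it and Bax below it (12.5 ± 1.9). Bcl2 followed at 6.90 ± 0.87, clear of Bax and of Bcl2l1 (2.66 ± 0.30). Bcl2l2, Bbc3 and Bcl2l11 lay between 1.07 and 2.09 CPM per kb in both LT-HSC fractions. Pmaip1 was last in LT-HSC (0.0383 ± 0.044 in EMCN+ cells and 0.0591 ± 0.10 in EMCN- cells), and Bbc3 was last in GMP (0.467 ± 0.20). With the length of the longest transcript in place of all exons, Bcl2l1 moved above Bak1 in EMCN+ cells and Bid above Bak1 in GMP.

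**Figure D1:**
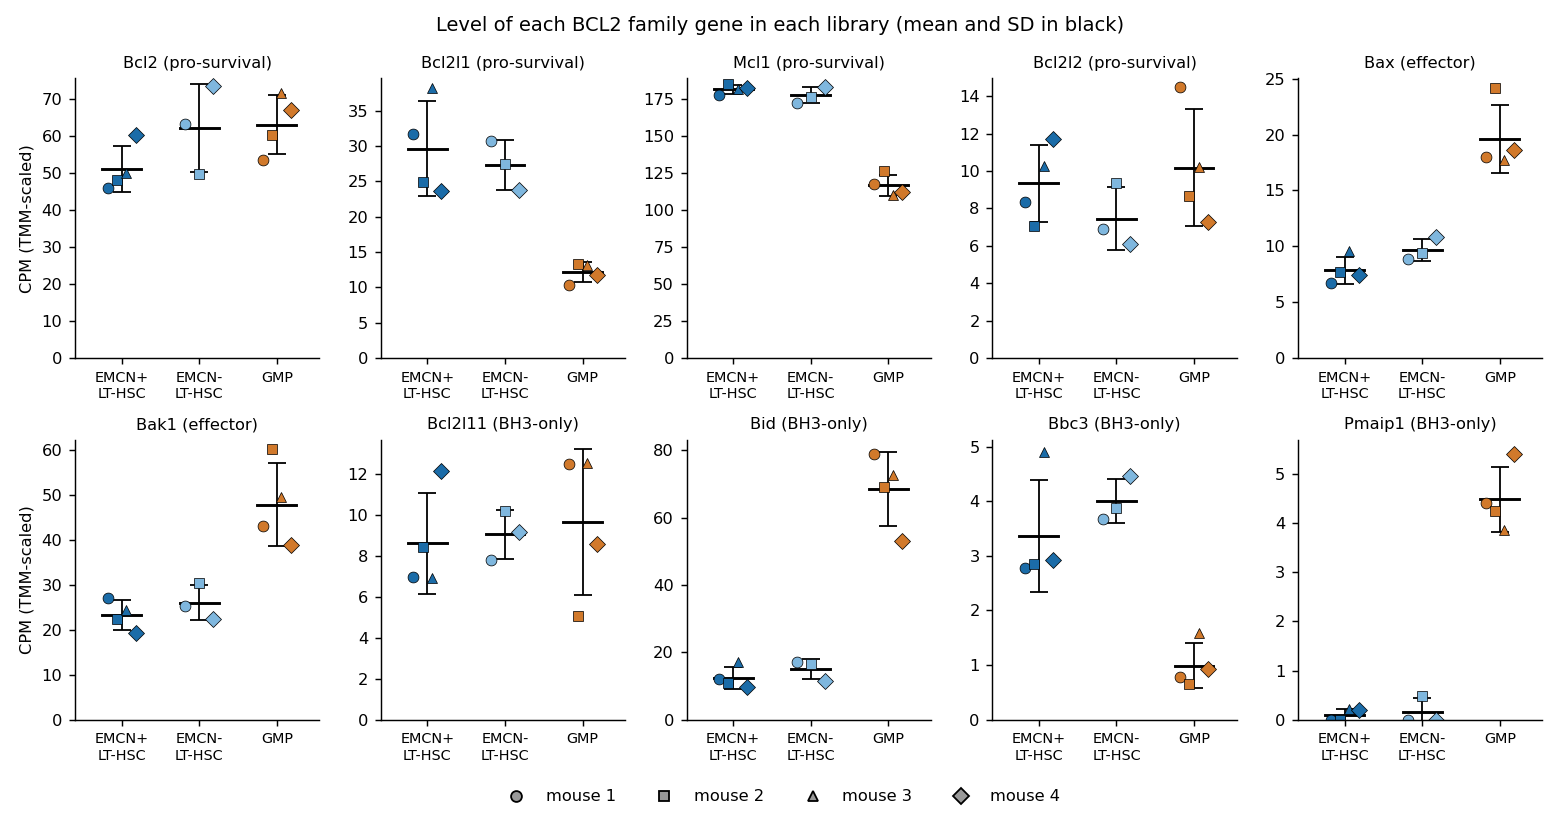
TMM-scaled CPM of each of the 10 genes (y axes, linear from 0) in the 2 LT-HSC fractions and in GMP. Each symbol is a library, its shape gives the mouse, and black bars give the mean and SD. EMCN+ and EMCN- libraries overlap for every gene, while Mcl1, Bcl2l1 and Bbc3 lie higher and Bid, Bax, Bak1 and Pmaip1 lower in all 7 LT-HSC libraries than in all 4 GMP libraries.

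The first comparison asked whether stem cells with and without surface EMCN differed in survival and death genes. No family gene was called between EMCN+ and EMCN- LT-HSC, and their libraries overlapped for all 10. Mcl1, the leading pro-survival gene, was at nearly the same level in both fractions. Bcl2, Bid, Bbc3 and Bax each read lower in EMCN+ than in EMCN- cells in 3 of 3 mice with both libraries, by amounts that did not pass the test. With total counts this held for Bcl2 in 2 of 3 mice and for the other genes in 3 of 3. The Pabpn1 row, outside the family, also read lower in 3 of 3 mice with TMM scaling. The share of all genes lower in 3 of 3 mice was not counted, so these directions are no result about the family. A gene was called where edgeR's quasi-likelihood test gave a Benjamini-Hochberg adjusted p below 0.05 over all 14915 genes. By this rule 0 of 10 family genes were called, against 1.96% of all genes tested (293 genes, of which 39.2% were higher in EMCN+ cells, or 76.3% of the 211 called when scaled by total counts). At an unadjusted p below 0.05 the number was also 0 of 10 (2076 of all genes), and DESeq2 and limma-voom called 0 as well. A design with mouse as a block also called 0, of 10 in all 11 libraries (374 genes called) and of the 9 tested in the 6 libraries of complete pairs (908 genes called). Libraries that do not overlap were seen for 0 of 10 family genes and 14.2% of all genes.

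Among the pro-survival genes, Mcl1 read 178, 185, 182 and 182 CPM in the EMCN+ libraries of mice 1, 2, 3 and 4. It read 173, 177 and 183 CPM in the EMCN- libraries of mice 1, 2 and 4. The log2 difference of EMCN+ minus EMCN- was 0.03 ± 0.09 (SE), with a 95% interval of -0.163 to 0.231. That interval is the narrowest of the 10 genes, and it excludes a change of Mcl1 as large as the one between LT-HSC and GMP given below. Bcl2, the founding member of the family, read 45.9, 48.2, 50.1 and 60.2 CPM in EMCN+ cells and 63.3, 49.7 and 73.5 CPM in EMCN- cells. In each of mice 1, 2 and 4 the EMCN+ library was the lower one, by 0.0455 to 0.466 on the log2 scale. The groups overlapped because the EMCN- library of mouse 2 lay below the EMCN+ libraries of mice 3 and 4. The fitted difference was -0.29 ± 0.14 (SE), with an interval of -0.579 to 0.00921 and an adjusted p of 0.379 in edgeR's quasi-likelihood test, the smallest of the family.

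Bcl2l1, whose long splice form protects cells and whose short form does the reverse, read 31.8, 24.9, 38.2 and 23.6 CPM in EMCN+ cells and 30.8, 27.4 and 23.7 CPM in EMCN- cells. The highest value was that of the EMCN+ library of mouse 3, the mouse without an EMCN- library, and the groups overlapped throughout. Bcl2l2 was the scarcest pro-survival gene, at 8.34, 7.04, 10.2 and 11.7 CPM in EMCN+ cells and 6.88, 9.36 and 6.11 CPM in EMCN- cells. The fitted log2 differences were 0.12 ± 0.18 for Bcl2l1 and 0.30 ± 0.28 for Bcl2l2 (SE), with intervals of -0.249 to 0.481 and -0.278 to 0.879. Both intervals span 0, and the wider one allows Bcl2l2 a difference of close to 1 log2 unit.

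The BH3-only genes and effectors all had fitted values below 0 in this comparison, and none passed the test. Bcl2l11 came out just above 0 with total counts (0.0173) and on leaving out any of 3 single libraries (at most 0.00146), and Pmaip1 at 2.51 without the EMCN- library of mouse 2. Bid, which links death receptors to mitochondria once caspase-8 has cut it, read 12.01, 10.8, 17.2 and 9.77 CPM in EMCN+ cells and 17.1, 16.5 and 11.5 CPM in EMCN- cells. Bbc3, a target of p53, read 2.78, 2.86, 4.90 and 2.93 CPM in EMCN+ cells and 3.67, 3.88 and 4.46 CPM in EMCN- cells. For both genes the EMCN+ library of mouse 3 was the highest of its group, and for Bbc3 it alone overlapped the EMCN- libraries. The fitted log2 differences were -0.28 ± 0.20 for Bid and -0.24 ± 0.43 for Bbc3 (SE), with adjusted p of 0.58 and 0.875. Bcl2l11, which restrains survival of many blood cell types, read 6.95, 8.44, 6.91 and 12.1 CPM in EMCN+ cells and 7.80, 10.2 and 9.16 CPM in EMCN- cells, a log2 difference of -0.09 ± 0.30. Pmaip1 gave 3 counts in all EMCN+ libraries together and 3 in all EMCN- libraries, too few for a comparison.

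Bax read 6.75, 7.74, 9.58 and 7.43 CPM in EMCN+ cells and 8.87, 9.36 and 10.8 CPM in EMCN- cells. Bak1 read 27.1, 22.4, 24.4 and 19.4 CPM in EMCN+ cells and 25.4, 30.4 and 22.6 CPM in EMCN- cells. Both effectors overlapped between the fractions, Bax only through the EMCN+ library of mouse 3. Their fitted log2 differences were -0.29 ± 0.21 and -0.16 ± 0.17 (SE), with intervals of -0.730 to 0.150 for Bax and -0.507 to 0.184 for Bak1.

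The second comparison set the 7 LT-HSC libraries against the 4 GMP libraries. All came from the same 4 mice, and mice 1, 2 and 4 each gave both an EMCN+ and an EMCN- library. The main fit treated the libraries as independent, so its SE and p values hold no term for the mouse. Stem cells carried more of the pro-survival transcripts Mcl1 (1.54-fold) and Bcl2l1 (2.36-fold) and of the BH3-only transcript Bbc3 (3.69-fold), and less of Bid (5.03-fold lower), Pmaip1, Bax (2.29-fold lower) and Bak1 (1.95-fold lower). In all, 7 of 10 family genes were called (3 higher and 4 lower in LT-HSC). The background was high: 62.5% of all genes tested were called (32.5% higher and 29.9% lower), so the share of family genes called is near the background and is no result about the family. With TMM scaling the same 7 genes had libraries that did not overlap, against 48.1% of all genes. Scaled by total counts, the libraries of Bax and of Bak1 overlapped between LT-HSC and GMP. The median log2 change was -0.229 over the 10 genes and 0.0298 over all genes. With mouse as a block 7 family genes were also called, beside 9455 of all genes. Bbc3 passed the low-count filter through LT-HSC alone and Pmaip1 through GMP alone, so that these 2 genes had to differ to be tested at all.

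By scaling, the direction of these calls held for Mcl1, Bcl2l1, Bbc3, Bid, Bax and Pmaip1 under TMM, RLE, upper-quartile and total-count scaling. Under total counts 9 of 10 genes were called, and 82.6% of all called genes were higher in LT-HSC against 52.1% with TMM. In that setting the call of Bak1 was lost (-0.17, adjusted p = 0.256 in edgeR's quasi-likelihood test), Bax kept its call narrowly (-0.407, adjusted p = 0.0397), and Bcl2 (0.594), Bcl2l2 (0.504) and Bcl2l11 (0.627) were called higher in LT-HSC. That makes 6 higher and 3 lower. The median of all genes stood at 0.811 in that setting, and Bcl2, Bcl2l2, Bcl2l11, Bax, Bak1, Bid and Pmaip1 lay below it, as they lay below the median with TMM.

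**Figure D2:**
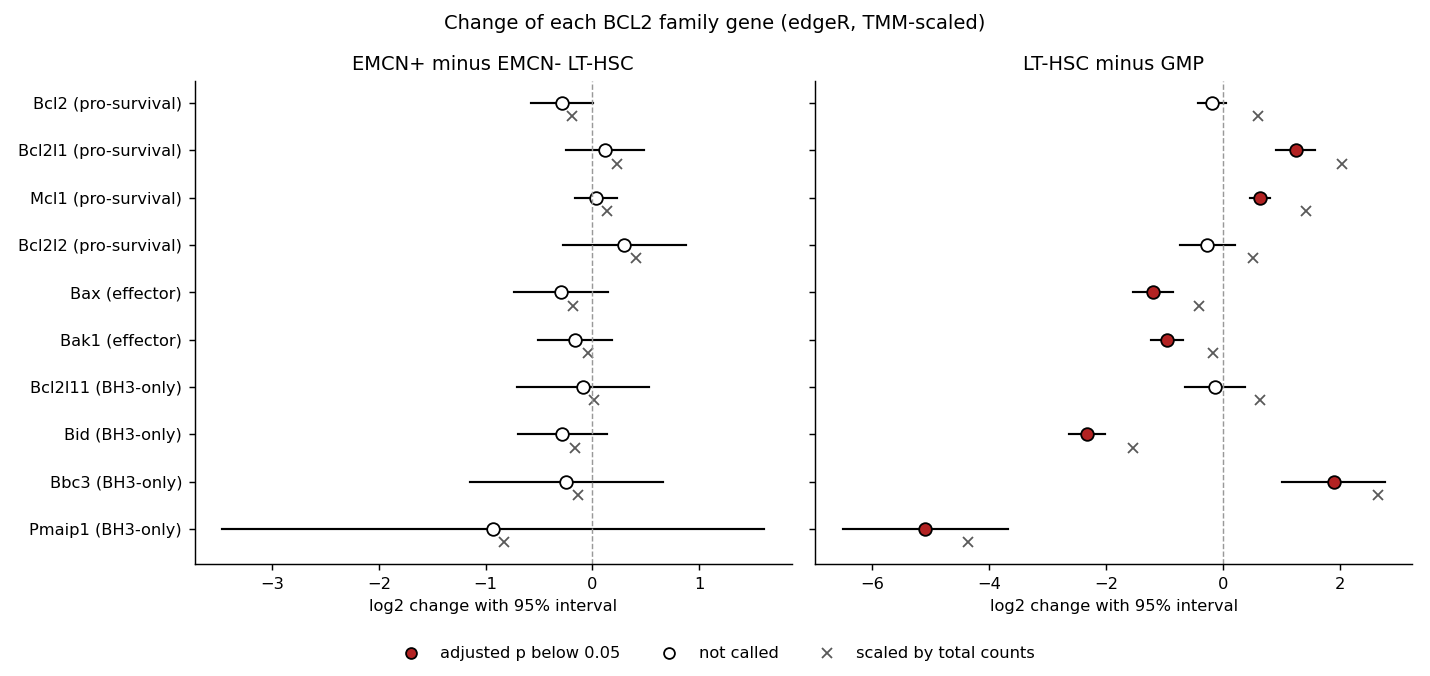
Fitted log2 change of each gene (x axes) with its 95% interval, for EMCN+ minus EMCN- LT-HSC on the left and LT-HSC minus GMP on the right, on different x scales. Red points were called (7 on the right, 0 on the left), and grey crosses give the value when libraries were scaled by total counts, which lies to the right of every circle.

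In GMP, Mcl1 read 117, 126, 110 and 113 CPM in mice 1, 2, 3 and 4. The lowest LT-HSC library, at 173 CPM, was well above the highest GMP library, at 126 CPM. The log2 change of LT-HSC minus GMP was 0.63 ± 0.08 (SE, 95% interval 0.459 to 0.792), with an adjusted p of 7.39e-07 in edgeR's quasi-likelihood test. Bcl2l1 read 10.4, 13.4, 13.2 and 11.8 CPM in GMP against 23.6 to 38.2 CPM in LT-HSC. No LT-HSC library came near the GMP range, and the log2 change was 1.24 ± 0.16 (SE) with an adjusted p of 7.83e-07. Within each mouse, the EMCN+ library exceeded the GMP library in 4 of 4 mice for both genes, and the EMCN- library in 3 of 3.

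Each fraction was also set against GMP alone. EMCN+ cells gave 8 of 10 called family genes, where 61.3% of all genes were called, and EMCN- cells gave 7 of 10, where 52.7% were called. The calls were those of the pooled comparison in both, with Bcl2 added for EMCN+ cells.

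Bcl2 and Bcl2l2 did not follow Mcl1 and Bcl2l1. Bcl2 read 53.5, 60.4, 71.7 and 67.0 CPM in GMP, inside the 45.9 to 73.5 CPM range of LT-HSC. The log2 change was -0.19 ± 0.12 (SE) with an adjusted p of 0.171. For the EMCN+ fraction alone against GMP, Bcl2 was lower by a log2 change of -0.31 ± 0.13 (SE), with an adjusted p of 0.047 in edgeR's quasi-likelihood test, although the libraries overlapped. Within mice, with TMM scaling, the EMCN+ library was lower than the GMP library in 4 of 4, while with total counts Bcl2 was called in the opposite direction (0.514, adjusted p = 0.00291 in edgeR's quasi-likelihood test). Of 22 other settings the lower call was kept in 7, reversed in that 1 and lost in 14, among them RLE scaling (adjusted p = 0.063), DESeq2 (adjusted p = 0.076) and the removal of any of several single libraries. For the EMCN- fraction against GMP, the change of Bcl2 was -0.02 ± 0.14 (adjusted p = 0.908). The 2 comparisons share the GMP libraries, and the direct comparison of the fractions is the one given above. Bcl2l2 read 14.5, 8.65, 10.2 and 7.28 CPM in GMP, where mouse 1 lay above every LT-HSC library (at most 11.7 CPM) and the other 3 libraries overlapped LT-HSC (-0.27 ± 0.22, adjusted p = 0.307).

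The largest shift of a well-counted family gene was that of Bid. GMP libraries read 78.9, 69.2, 72.6 and 53.0 CPM, and the highest LT-HSC library read 17.2 CPM. The log2 change was -2.33 ± 0.15 (SE, interval -2.64 to -2.02), with an adjusted p of 2.92e-11 in edgeR's quasi-likelihood test. It was -2.45 ± 0.18 for EMCN+ cells and -2.17 ± 0.20 for EMCN- cells against the same GMP libraries. Of the summed CPM per kb of Bcl2l11, Bid, Bbc3 and Pmaip1, Bid accounted for 85.1 ± 3.2% in GMP, 56.2 ± 5.8% in EMCN+ cells and 57.6 ± 7.1% in EMCN- cells.

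Pmaip1, whose protein binds MCL1 and promotes its degradation, was counted mainly in GMP. It had 28, 26, 17 and 29 counts in the GMP libraries (4.42, 4.24, 3.87 and 5.41 CPM), against 0, 0, 2 and 1 counts in EMCN+ cells and 0, 3 and 0 in EMCN- cells. A library with 0 counts allows up to 3 counts, or 0.209 to 0.459 CPM in the EMCN+ libraries of mice 1 and 2 and the EMCN- library of mouse 1, and 0.705 CPM in the EMCN- library of mouse 4. Summed over libraries, the GMP level was 41.6 times that of LT-HSC, with an exact 95% interval of 18.5 to 116 that covers counting error only. The ratio was 57.8 (19.2 to 285) against EMCN+ cells and 25.5 (8.47 to 126) against EMCN- cells, and these intervals overlap widely. The fitted log2 change was -5.09 ± 0.68 (SE, adjusted p = 1.36e-06 in edgeR's quasi-likelihood test), a value that depends on the prior count at such low counts. Since Pmaip1 passed the low-count filter through GMP alone, this p, the ratios with their intervals and the lack of overlap are no independent support for the difference.

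Bbc3 went the other way. GMP libraries held 5, 4, 7 and 5 counts (0.789, 0.653, 1.59 and 0.933 CPM), and LT-HSC libraries 15 to 44 counts (2.78 to 4.90 CPM). Every LT-HSC library was above every GMP library, and the log2 change was 1.89 ± 0.42 (SE, adjusted p = 0.000605 in edgeR's quasi-likelihood test). Since Bbc3 passed the low-count filter through LT-HSC alone, this p and the lack of overlap are no independent support for the difference. Of the same sum over Bcl2l11, Bid, Bbc3 and Pmaip1, Bbc3 made up 25.3 ± 2.3% in EMCN+ cells, 26.2 ± 5.4% in EMCN- cells and 2.08 ± 0.82% in GMP. Bcl2l11 read 12.5, 5.06, 12.5 and 8.58 CPM in GMP. Its GMP values lay on both sides of the LT-HSC values and the log2 change was -0.14 ± 0.24 (adjusted p = 0.641).

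Both effectors were lower in stem cells. Bax read 17.98, 24.2, 17.8 and 18.7 CPM in GMP and at most 10.8 CPM in LT-HSC, a log2 change of -1.19 ± 0.16 (SE, adjusted p = 1.99e-06 in edgeR's quasi-likelihood test). Bak1 read 43.1, 60.2, 49.6 and 38.8 CPM in GMP and at most 30.4 CPM in LT-HSC, a log2 change of -0.96 ± 0.13 (SE, adjusted p = 1.68e-06). For both genes the GMP library of mouse 2 was the highest, and with TMM scaling no library overlapped between LT-HSC and GMP. Under total-count scaling the call of Bax was lost for EMCN- cells against GMP (-0.304, adjusted p = 0.23), and that of Bak1 in both fractions.

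Some of these genes share exon sequence with neighbours, and the strand setting of the counting is not given in the sources used here. Bid overlaps Bcl2l13 on the opposite strand over 17.7% of its exons, and Bcl2l13 had 147 to 558 counts per library. Bak1 overlaps Ggnbp1 on the opposite strand over 25.5%, with at most 35 counts per library on either of the rows named Ggnbp1. Bcl2l2 and Pabpn1 each share exons with the read-through gene Gm20521, over 13.3% and 21.5%, and that gene drew 29 counts in all 11 libraries. The Pabpn1 row read 76.2 to 91.3 CPM in LT-HSC and 102 to 135 CPM in GMP, roughly an order of magnitude above Bcl2l2, with a log2 change of -0.44 ± 0.09 (SE, adjusted p = 0.0002 in edgeR's quasi-likelihood test). Under total-count scaling this value turned to 0.338. Read by symbol alone, that row would have passed as a called change of Bcl2l2.

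Ratios between family genes within a library do not depend on how libraries are scaled. The summed CPM per kb of the 4 pro-survival genes was 11.01 times that of the 4 BH3-only genes in EMCN+ cells, 9.12 times in EMCN- cells and 2.05 times in GMP (log2 3.46 ± 0.24, 3.19 ± 0.18 and 1.04 ± 0.20, SD over 4, 3 and 4 libraries). Over the 2 effectors the ratio was 4.60, 3.92 and 1.43 (log2 2.20 ± 0.15, 1.97 ± 0.14 and 0.52 ± 0.19). For both ratios the LT-HSC libraries lay above the GMP libraries without overlap, while EMCN+ and EMCN- libraries overlapped for the first and, from 2.083 to 2.409 against 1.813 to 2.073, stood just apart for the second. Within mice, both ratios were higher in EMCN+ than in EMCN- cells in 3 of 3 pairs, by 0.171 to 0.567 on the log2 scale over BH3-only genes and by 0.0614 to 0.412 over effectors. The overlap of the first ratio came through the EMCN+ library of mouse 3 (3.099), which has no partner. These are descriptions of libraries, with no test, and both ratios share the pro-survival sum. How often ratios of other genes agree in 3 of 3 pairs was not counted, so these directions are no result about the family. Mcl1 weighs most in the sums, with 79.0%, 78.3% and 74.2% of the pro-survival total in the 3 groups. The BH3-only genes Bad and Bmf are outside the family list and do not enter the sums. Bad read 5.05, 5.94 and 11.3 CPM per kb in the 3 groups, and Bmf 0.932, 0.457 and 0.102. Counting Bad and Bmf would lower the pro-survival over BH3-only ratio in every group. The pro-survival Bcl2a1 copies are left out of the sums as well. Bcl2a1b read 0.2315, 0 and 2.04 CPM per kb in the 3 groups, Bcl2a1d 0.222, 0.374 and 1.47, and Bcl2a1a 0.0606, 0.128 and 0.297. Bcl2a1c had 1 count in LT-HSC and 0 in GMP. Counting these copies would raise the pro-survival sum most in GMP. The sums themselves do depend on the scaling. With TMM scaling they differed in opposite directions between LT-HSC and GMP: the pro-survival sum was 67.3 ± 1.5, 66.4 ± 1.6 and 45.9 ± 1.7 CPM per kb, the BH3-only sum 6.20 ± 1.3, 7.31 ± 0.74 and 22.6 ± 3.2, and the effector sum 14.7 ± 1.5, 17.0 ± 1.4 and 32.4 ± 5.6. The sum over all 10 genes was 88.2 ± 3.6, 90.7 ± 1.2 and 100.9 ± 8.1 CPM per kb. With total counts the means of the pro-survival, BH3-only and effector sums kept their directions between LT-HSC and GMP, with other sizes. The pro-survival sum was then 84.3 ± 3.7, 77.3 ± 5.1 and 32.5 ± 0.86 CPM per kb. The BH3-only sum was 7.77 ± 1.6, 8.50 ± 0.82 and 15.95 ± 2.1, and the effector sum 18.45 ± 2.6, 19.7 ± 0.65 and 22.8 ± 2.8 CPM per kb. The sum over all 10 genes was then higher in LT-HSC (110.6 ± 7.3 and 105.6 ± 4.7) than in GMP (71.2 ± 2.2), the reverse of its order with TMM scaling.

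Single ratios to Bcl2 showed the same split between stem cells and GMP. Bax over Bcl2, an index often used for readiness to die, was 0.893 in EMCN+ cells, 0.913 in EMCN- cells and 1.80 in GMP (log2 -0.16 ± 0.26, -0.13 ± 0.23 and 0.85 ± 0.30). Mcl1 over Bcl2 was 9.58, 7.75 and 4.97, and Bcl2l1 over Bcl2 was 1.14, 0.883 and 0.386. In each of the 3 ratios the LT-HSC libraries did not overlap those of GMP and the fractions overlapped each other. Within mice, Mcl1 over Bcl2 was higher in EMCN+ cells in 3 of 3 pairs, by 0.114 to 0.508 on the log2 scale. Bcl2l1 over Bcl2 was higher in 2 of 3 and Bax over Bcl2 in 1 of 3. These directions were not tested either. The distance between genes depends on the length chosen: with the longest transcript, Mcl1 over Bcl2 became 2.91, 2.60 and 1.96 on the log2 scale and the pro-survival over BH3-only ratio 3.10, 2.84 and 0.645, with the groups in the same order. With that length, mean Bax and Bcl2 were 7.159 and 7.105 CPM per kb in EMCN+ cells, 8.802 and 8.65 in EMCN- cells and 17.85 and 8.781 in GMP. Whether Bax over Bcl2 lies below 1 in LT-HSC thus depends on the length.

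**Figure D3:**
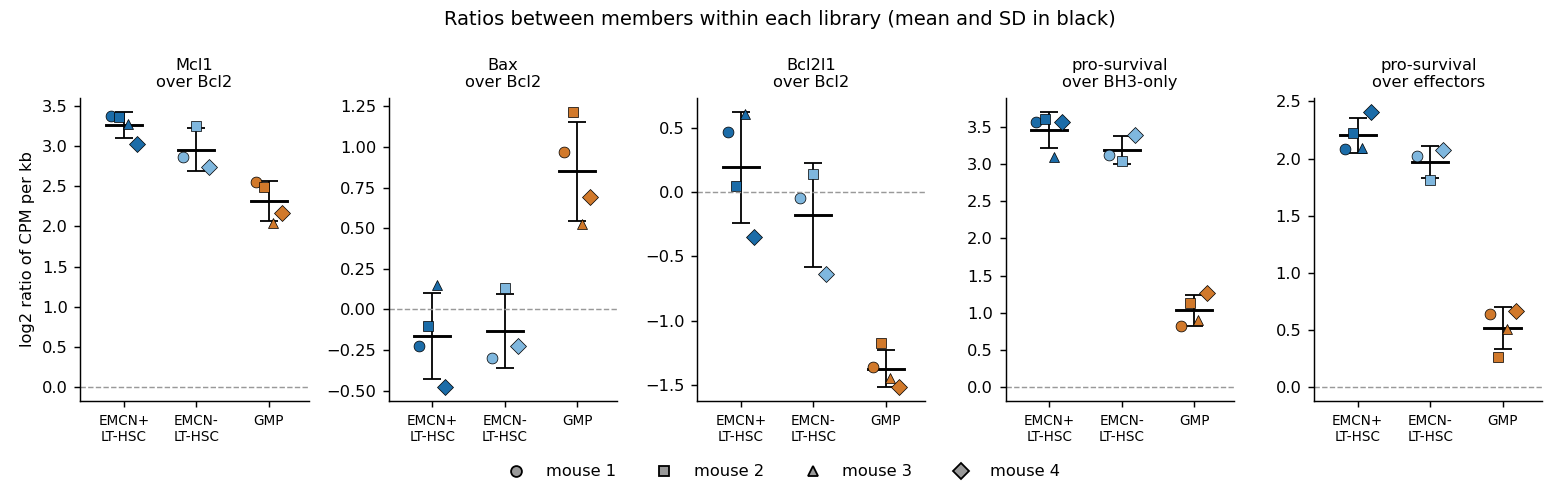
Log2 ratios of length-scaled CPM (y axes, each panel on its own scale) within each library for Mcl1, Bax and Bcl2l1 over Bcl2 and for the summed pro-survival genes over the summed BH3-only genes and effectors. Symbols give mice and black bars the mean and SD. GMP libraries stand apart from all LT-HSC libraries in every panel, for example at 0.827 to 1.27 against 3.04 to 3.61 for pro-survival over BH3-only.

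Further genes of the death pathway were read from lists around the family. Between EMCN+ and EMCN- cells, 0 genes of these 6 lists were called, with 7, 16, 5, 11, 5 and 12 genes tested in the order in which the lists are taken below. At an unadjusted p below 0.05 the numbers were 1, 2, 0, 2, 0 and 2, and 2076 of all 14915 genes passed that level. DESeq2 and limma-voom also called 0 in each list. Foxo1, a transcription factor that drives Bcl2l11 and Bbc3, read 28.01 against 17.9 CPM (log2 0.64 ± 0.19 SE, adjusted p = 0.106). The BH3-only gene Bmf read 4.89 against 2.40 CPM (1.01 ± 0.50, adjusted p = 0.379). With mouse as a block in the 6 paired libraries, edgeR's quasi-likelihood test called, among others, Foxo1 (adjusted p = 0.0287), Myc (-0.413, adjusted p = 0.0127) and the mitophagy receptor gene Bnip3l (-0.34, adjusted p = 0.0351). Myc was also called with the block in all 11 libraries (adjusted p = 0.0309). The LT-HSC marker list was higher in EMCN+ than in EMCN- cells without overlap, and its part in these values was not tested.

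Between LT-HSC and GMP, the other BCL2 relatives gave 1 higher and 4 lower of 7 genes tested. Of all genes tested 62.5% were called in this comparison, 32.5% higher and 29.9% lower, and the counts of this and the next lists are given beside those shares, with no test of a list. Bmf rose 2.78 ± 0.52 on the log2 scale (SE, 3.83 against 0.535 CPM, and it passed the low-count filter through LT-HSC alone), and the BH3-only gene Bad fell by 1.07 (13.9 against 28.9 CPM). Bnip3 (-0.58), Bcl2l13 (-0.48) and Bnip3l (-0.31), which act in the removal of mitochondria, were lower with TMM scaling and above 0 with total counts (0.194, 0.299 and 0.47), and Bad lost its call there (-0.28, adjusted p = 0.108 in edgeR's quasi-likelihood test). Bnip3l also lost its call with upper-quartile factors (-0.189, adjusted p = 0.0557). With total counts the list gave 3 higher and 0 lower. Of the 16 genes of this list, 9 were not tested. Bcl2l10 and Bcl2l15 had 0 counts in all libraries. The near-identical Bcl2a1 copies, whose reads the counting could split, had at most 15 counts in any library. Among them, Bcl2a1b read 0.108 CPM in LT-HSC and 1.67 in GMP, and Bcl2a1d 0.248 and 1.27.

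The list of genes for the apoptosome, caspases and mitochondrial release was mostly lower in LT-HSC with TMM scaling. Of its 16 genes, 11 were lower and 2 higher in LT-HSC (29.9% and 32.5% of all genes). The median log2 change was -0.498 against 0.0298 over all genes. With total counts the split was 5 lower and 8 higher, and the median of 0.283 stood below the 0.811 of all genes. Cycs, the cytochrome c gene, read 16.6 to 31.5 CPM in LT-HSC and 134 to 163 CPM in GMP, a change of -2.63 ± 0.12 (SE, adjusted p = 1.65e-13 in edgeR's quasi-likelihood test). Cytochrome c also carries electrons in respiration. Endog (-2.06), Htra2 (-1.42) and Apaf1 (-1.12), the scaffold of the apoptosome, were lower as well, and all 4 of these kept that direction and call with total counts. Casp6 (1.12) and Casp2 (0.52) were the 2 genes of the list that rose.

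Inhibitor of apoptosis genes gave 3 higher and 1 lower of 5 (4 and 1 with total counts), where 62.5% of all genes were called. Xiap, which blocks caspases directly, rose 0.91 ± 0.11 (102 against 54.2 CPM), and Birc2 rose 0.78 ± 0.10. Birc6 (0.33 ± 0.13, adjusted p = 0.0431) lost its call in 11 of 23 other settings, with adjusted p up to 0.11 on leaving out the GMP library of mouse 1. Birc5, better known for its part in cell division than in caspase inhibition, fell by 2.61. In the death receptor pathway, 2 were higher and 1 lower of 11, fewer than the 62.5% called among all genes, or 10 and 0 with total counts. The ligand gene Tnfsf10 (TRAIL) rose 2.09 ± 0.12 (76.6 against 17.9 CPM) and its receptor gene Tnfrsf10b 1.29 ± 0.29, while Mlkl, the effector of necroptosis, fell by 0.94 with TMM scaling and was not called with total counts (-0.159, adjusted p = 0.282 in edgeR's quasi-likelihood test).

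MCL1 protein is kept short-lived by ubiquitin ligases, so the genes for its turnover were read beside Mcl1. Of 5 tested, 4 were higher and 0 lower in LT-HSC, beside 32.5% and 29.9% of all genes (5 and 0 with total counts, which place 82.6% of all calls on the higher side). Usp9x, which removes ubiquitin from MCL1, rose 0.82 ± 0.12, and the ligase genes Huwe1 and Fbxw7 rose 0.50 ± 0.11 and 0.41 ± 0.10. Gsk3b, whose kinase marks MCL1 for degradation, rose 0.56 ± 0.11. Genes with opposite effects on MCL1 protein thus moved in the same direction, and protein was not measured.

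All 12 tested transcription factors known to act on family genes were called, 9 higher and 3 lower in LT-HSC, with a median log2 change of 0.956 against 0.0298 over all genes, of which 62.5% were called (10 and 1 with total counts). Foxo1 (2.45 ± 0.19), Foxo3 (1.75 ± 0.10), Stat5a (1.14 ± 0.10) and Stat3 (1.12 ± 0.11) rose. E2f1 fell by 1.21. Atf4 (-0.61) and Myc (-0.42) were lower with TMM scaling and above 0 with total counts (0.174 and 0.366). Whether any of these factors had a part in the changes of the family genes was not tested. Mature granulocyte and monocyte markers summed to 194 to 596 CPM in GMP and 8.46 to 22.9 CPM in LT-HSC, with Ly6g at 0 in every group, and their part in the differences from GMP was not tested.

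**Figure D4:**
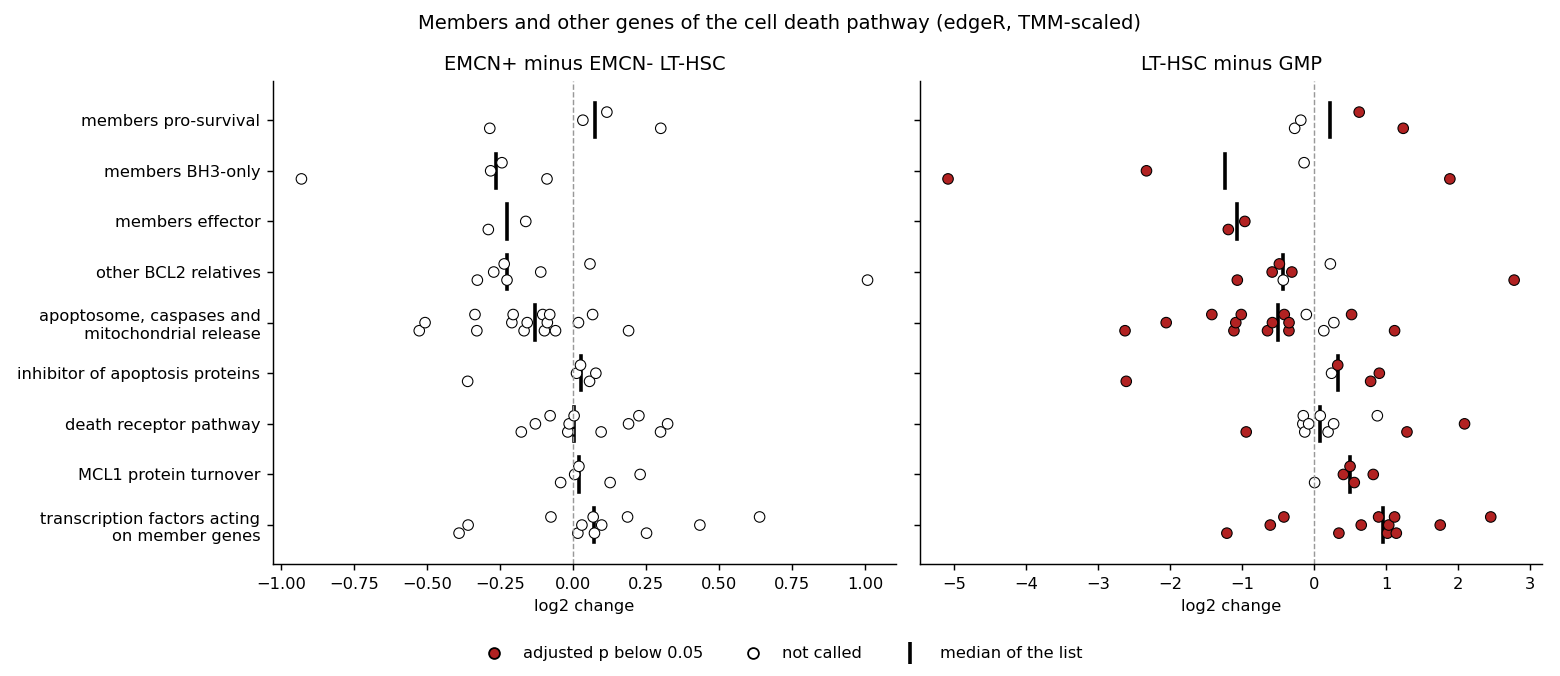
Fitted log2 change of every tested gene (circles) of the family classes and of the 6 further lists, for EMCN+ minus EMCN- LT-HSC on the left and LT-HSC minus GMP on the right, on different x scales. Red circles were called, and black bars mark the median of each list. No circle is red on the left, and on the right the apoptosome list centres on -0.498 and the transcription factor list on 0.956.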

How the data were processed

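RNA from 11 sorted populations of 4 mice was made into libraries with a stranded total-RNA kit and sequenced in pairs, per the labels' protocols. The labels give the molecule as polyA RNA, and this difference from the kit was not resolved. The authors deposited 1 table of estimated counts per gene (whole numbers) for all libraries. The submitters' processing notes name cutadapt and Salmon. Versions, genome build, annotation and strand setting are not given in the sources used here. Row identifiers matched GENCODE M21 (GRCm38) for 54094 of 54347 genes, which gave gene lengths and positions.

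Counts were fitted with edgeR 4.0.16 (TMM factors, filterByExpr with a minimum count of 10, robust quasi-likelihood, 1 model for the 3 groups over all 11 libraries), with Benjamini-Hochberg adjustment over 14915 genes and a threshold of 0.05. LT-HSC is the mean over its 7 libraries. CPM used the counts in tested genes multiplied by the TMM factor, an effective size of 4256375 to 14339813 per library. Levels of different genes were compared per kb of merged exons. DESeq2 1.42.0, limma-voom (limma 3.58.1), other scalings, filters, libraries and lengths were alternatives. The fit was tested on simulated counts.

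Mouse numbers pair libraries of the same animal, per the labels. Deviations from the group means correlated at 0.198 (0.165 to 0.223) for EMCN+ and EMCN- libraries of the same mouse. For different mice the mean was -0.0656, over a range of -0.246 to 0.19 that reaches into the same-mouse range. EMCN+ and GMP libraries of the same mouse correlated at 0.0253 (-0.0606 to 0.0613), and EMCN- and GMP libraries at 0.133 (0.105 to 0.15). Deviations cancel within a group, so the values for same and different mice are not independent. The block is an alternative.

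The family genes and the lists were chosen with earlier results of these data known. Named genes were all 10 family genes and, from each further list, up to 4 called genes per direction with the largest change, or, in a list without a call, up to 2 genes of lowest p. A gene that this rule names is not reported here.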

Additional observations from a re-analysis of the deposited data

Results flagged for a closer look

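Single libraries that stood far from the other 3 of their group were looked for in 32 sets of 4 values, of which chance alone flags about 1 in 20. There were 3. Bbc3 read 4.90 CPM in the EMCN+ library of mouse 3, against 2.78 to 2.93 CPM in the other EMCN+ libraries. In the same library the log2 ratio of pro-survival over BH3-only genes was 3.10, against 3.57 to 3.61 in the others, and Bbc3 and Bid, which were both highest there, enter that ratio. Bax read 24.2 CPM in the GMP library of mouse 2, against 17.8 to 18.7 CPM in the other GMP libraries, and the call of Bax between LT-HSC and GMP did not need that library.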

How the results depend on the processing

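In EMCN+ versus EMCN- cells no family gene was called in any alternative. The number of all genes called (293) was 529 without the low-count filter, 451 with DESeq2, 465 with protein-coding genes alone, 90 with mice 2 to 4, 374 with mouse as a replicate block and 908 with the block in the 6 paired libraries, and 55 to 338 on leaving out single libraries (55 without the EMCN- library of mouse 1, 105 without the EMCN+ library of mouse 2). The block changed no call of a family gene. The fitted value of Bcl2l1 turned to -0.0458 with the block in paired libraries, and that of Birc2 to -0.00302. That of Bcl2l11 turned to 0.0173 with total counts. Leaving out single libraries gave -0.0271 to 0.21 for Bcl2l1, -0.277 to 0.00146 for Bcl2l11 and -1.82 to 2.51 for Pmaip1, which rests on 6 counts.

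In LT-HSC versus GMP the 7 calls held in every alternative that tested them, except Bak1 with total counts. The filter at 5 CPM removed Bbc3 and Pmaip1, which left 5 calls. For EMCN+ cells against GMP it left 5 in place of 8, since Bcl2 lost its call there too (-0.304, adjusted p = 0.0518 in edgeR's quasi-likelihood test). Total counts turned Bcl2 (0.594), Bcl2l2 (0.504), Bcl2l11 (0.627), Pabpn1 (0.338), Bcl2l13 (0.299), Bnip3 (0.194), Bnip3l (0.47), Atf4 (0.174) and Myc (0.366) above 0. They did so for EMCN+ cells against GMP in Bcl2 (0.514), Bcl2l2 (0.68), Bcl2l11 (0.635) and Pabpn1 (0.328), and for EMCN- cells against GMP in Bcl2 (0.702), Bcl2l2 (0.269), Bcl2l11 (0.618) and Pabpn1 (0.351). With mice 2 to 4, Bcl2l2 was 0.019 and Bcl2l11 0.108 for LT-HSC, 0.133 and 0.0667 for EMCN+ cells, and Bcl2l11 0.171 for EMCN- cells. Upper-quartile factors gave Bcl2 0.0863 and Bcl2l11 0.0203 in EMCN- cells against GMP, the block gave Bcl2 0.000905 and limma-voom gave Bcl2l11 0.00849. Single libraries left out gave -0.362 to 0.0141 for Bcl2l11 in LT-HSC, -0.277 to 0.0833 for Bcl2l2 in EMCN+ cells, and -0.154 to 0.0861 for Bcl2 and -0.311 to 0.0652 for Bcl2l11 in EMCN- cells. Beyond what the scaling itself shifts, the cause was not tested.

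With the longest transcript as length, the log2 ratios in EMCN+ cells, EMCN- cells and GMP were 2.91, 2.60 and 1.96 for Mcl1 over Bcl2, 0.68, 0.308 and -0.886 for Bcl2l1 over Bcl2, and 3.10, 2.84 and 0.645 for pro-survival over BH3-only genes. Depth limits Pmaip1 in LT-HSC and Bbc3 in GMP, where libraries held at most 3 and 7 counts.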
